A study of Mus musculus with 4 samples.

Results

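Domain boundaries that were present in the wildtype profile and had no partner in the Stag2 knock-out profile are described here. They number 380 of 1978 wildtype boundaries (19.2%), and the other 1598 had a knock-out boundary within 40 kb. A boundary was the lowest 20 kb bin among the 10 bins on each side, with no unscored bin in that window and a depth of at least 0.2 score units below the mean of the highest score on each side. Boundaries were found separately in the mean of the 2 wildtype and of the 2 knock-out libraries. The insulation scores of both genotypes therefore chose the members, and every wildtype to knock-out difference in these scores at the members is a description and carries no test.

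The scores came from Hi-C, which captures contacts between DNA segments, in mouse bone marrow progenitors from which cells with lineage markers had been removed with antibodies on magnetic beads. Each genotype, Stag2 wildtype and Stag2 knock-out, had 2 libraries, all cut with DpnII. The strain, age and sex of the animals, the allele and any Cre driver are not given in the sources used here, and no label says whether replicates were different animals. The genotype labels were not checked against a measure of Stag2 itself.

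Stag2 is one of the alternative STAG subunits of cohesin, a ring complex that pulls chromatin into growing loops. Extrusion tends to stop at sites bound by CTCF, and such stops appear in Hi-C maps as boundaries that few contacts cross. Stag1, the other STAG subunit of somatic cells, can also join the complex, and cohesin that carries it is known to act at CTCF sites. An insulation score is low at such positions, so a boundary is a local minimum and its depth measures how far the score drops below both flanks. STAG2 is among the cohesin genes mutated in human myeloid disease, which is the setting in which its loss in blood progenitors is studied.

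Scored bins numbered from 117486 to 120151 per library, and single libraries held between 1918 and 2087 boundaries by the same rule. Sequencing depth was unknown, so no counting interval was possible. The SD of scores across bins was larger in the knock-out libraries, at 0.452 and 0.464, than in the wildtype libraries, at 0.432 and 0.438.

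The unmatched boundaries were shallow dips in wildtype that were shallower in knock-out on average. Averaged over the 361 members whose depth could be read in all 4 libraries, depth was 0.324 in wildtype replicate 1, 0.324 in wildtype replicate 2, 0.258 in knock-out replicate 1 and 0.278 in knock-out replicate 2. The libraries of the 2 genotypes did not overlap. The wildtype mean was 0.324 ± 0.000302 and the knock-out mean 0.268 ± 0.0143 (SD, n = 2), a difference of -0.0563. The range within knock-out was 0.0202. Both this difference and the lack of overlap come from the scores that chose the members. At the 1597 matched boundaries read in all libraries the depths were 0.481 and 0.472 in wildtype and 0.429 and 0.464 in knock-out, a difference of -0.0299. The median depth in the mean wildtype profile was 0.271 for members and 0.422 for matched boundaries, and 41.1% of members against 77.5% of matched boundaries reached 0.3. The score at the boundary bin averaged -0.366 and -0.364 in wildtype and -0.286 and -0.304 in knock-out. The dip thus stayed visible in both knock-out libraries on average.

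**Figure D1:**
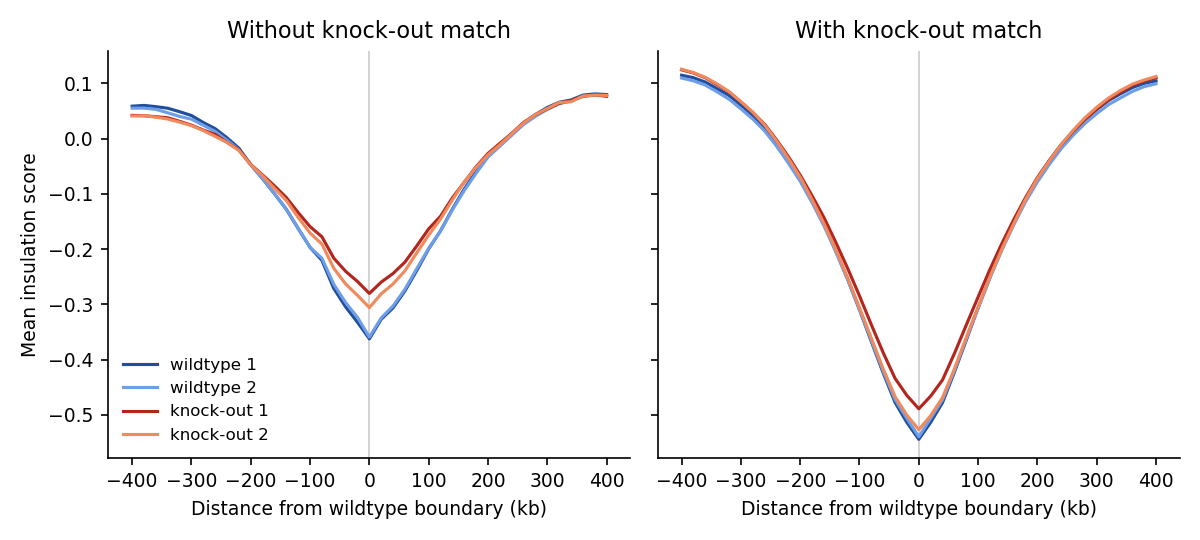
Mean insulation score (vertical axis) in each of the 4 libraries against distance from the wildtype boundary in kb (horizontal axis), for boundaries without (left) and with (right) a knock-out match, averaged over the boundaries whose bin at that distance was scored in all libraries. At members the knock-out curves bottom out above the wildtype curves and the curves meet about 200 kb away.

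Depth was lower in knock-out at 318 of 361 members (88.1%) by the mean of each genotype. The knock-out values were both under the wildtype values at 206 members (57.1%), where the share over all 1958 wildtype boundaries was 41.1%. They were both above at 17 members (4.71%), against 9.96% over all wildtype boundaries. Since the rule used this contrast, nothing is read from these counts. The depth difference of a member ran from -0.399 to 0.140, with a median of -0.0527 and quartiles of -0.0819 and -0.0256.

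Single libraries showed the members less clearly than the averaged profiles did. A boundary lay within 40 kb of 305 members in wildtype replicate 1 and of 295 in wildtype replicate 2, but only 230 (60.5%) were seen in both and 10 were seen in neither. In knock-out replicate 1 a boundary lay within 40 kb of 62 members, and in knock-out replicate 2 of 84. Thus 143 members (37.6%) had a boundary nearby in at least 1 knock-out library although the averaged knock-out profile had none, and 3 had one in both. Among matched boundaries the shares were 96.1% and 94.8% in wildtype and 90.6% and 94.2% in knock-out.

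**Figure D2:**
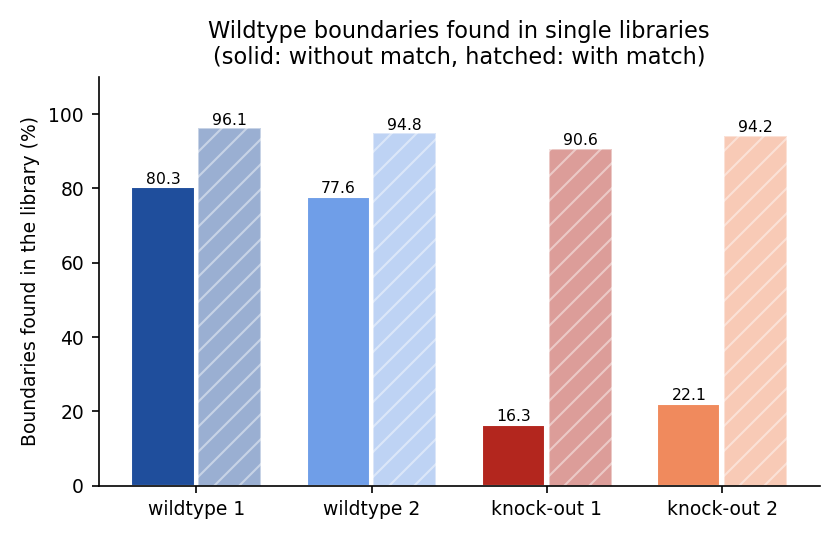
Percentage of wildtype boundaries (vertical axis) that had a boundary of the named single library within 40 kb, for the 380 members (solid bars) and the 1598 matched boundaries (hatched bars). Members were found in 80.3% and 77.6% of cases in wildtype and in 16.3% and 22.1% in knock-out.

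The strictest class, seen within 40 kb in both wildtype libraries and in neither knock-out library, held 129 members (33.9%). Its mean depths over the 124 readable members were 0.348 and 0.347 in wildtype and 0.267 and 0.291 in knock-out. The genotypes separated, with knock-out lower, at 87 of these 124, where the share over all wildtype boundaries was 41.1%, and the choice of the class favours such separation. In wildtype, 89 of 128 with an eigenvector value (69.5%) had a positive one. The 143 members with a boundary in some knock-out library had depths of 0.327 and 0.325 in wildtype and 0.266 and 0.289 in knock-out, and 71 of 140 (50.7%) had a positive eigenvector.

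Boundaries without a partner were also found between libraries of 1 genotype. Of the 2087 boundaries of wildtype replicate 1, 404 (19.4%) had none in wildtype replicate 2, and in the other direction the share was 16.4%. Knock-out replicate 1 lacked a partner in knock-out replicate 2 at 19.9% of its boundaries, and knock-out replicate 2 lacked one in knock-out replicate 1 at 24.8%. Wildtype boundaries of a single library lacked a partner in a single knock-out library at 21.9% to 28.3%. The share between genotypes was thus higher than both shares within wildtype in all 4 pairs, while it overlapped the shares within knock-out.

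A loss of depth also appeared when the comparison stayed within a genotype. Boundaries of wildtype replicate 1 without a partner in wildtype replicate 2 had a mean depth of 0.343 in the library that showed them and 0.290 in the other, a difference of -0.0527. In the other direction the difference was -0.0586. Between the knock-out libraries it was -0.0510 and -0.0781. The 4 pairs of 1 wildtype and 1 knock-out library gave between -0.0840 and -0.0615. These were larger in size than both differences within wildtype, and their range overlapped that within knock-out.

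Libraries that had not chosen the boundaries gave a smaller difference. Members were chosen again from 1 wildtype and 1 knock-out library, and depth was then read in the other library of each genotype. Chosen in replicate 1 of both genotypes, 539 readable boundaries had a depth of 0.322 in wildtype replicate 2 and 0.307 in knock-out replicate 2, a difference of -0.0151. Boundaries from the same libraries that did have a match differed by -0.000157 there. Chosen in replicate 2 of both, 436 boundaries had 0.315 in wildtype replicate 1 and 0.279 in knock-out replicate 1, a difference of -0.0369, against -0.0482 for matched boundaries. The crossed choices gave -0.0337 against -0.0371 and -0.0182 against -0.0129. Depth was lower in knock-out in all 4 readings, but in 2 of the 4 the boundaries without match differed by less than those with match.

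With a single library of each genotype left for reading, these values have no test, and the 4 readings share libraries. The larger differences came from the readings that used knock-out replicate 1, which was the shallower knock-out library. Of the boundaries chosen as unmatched, 33.8% to 45.8% had a boundary in the knock-out library that had not been used, and 55.8% to 60.5% had one in the unused wildtype library. Boundaries chosen as matched were found in the unused libraries at 84.4% to 91.6%.

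**Figure D3:**
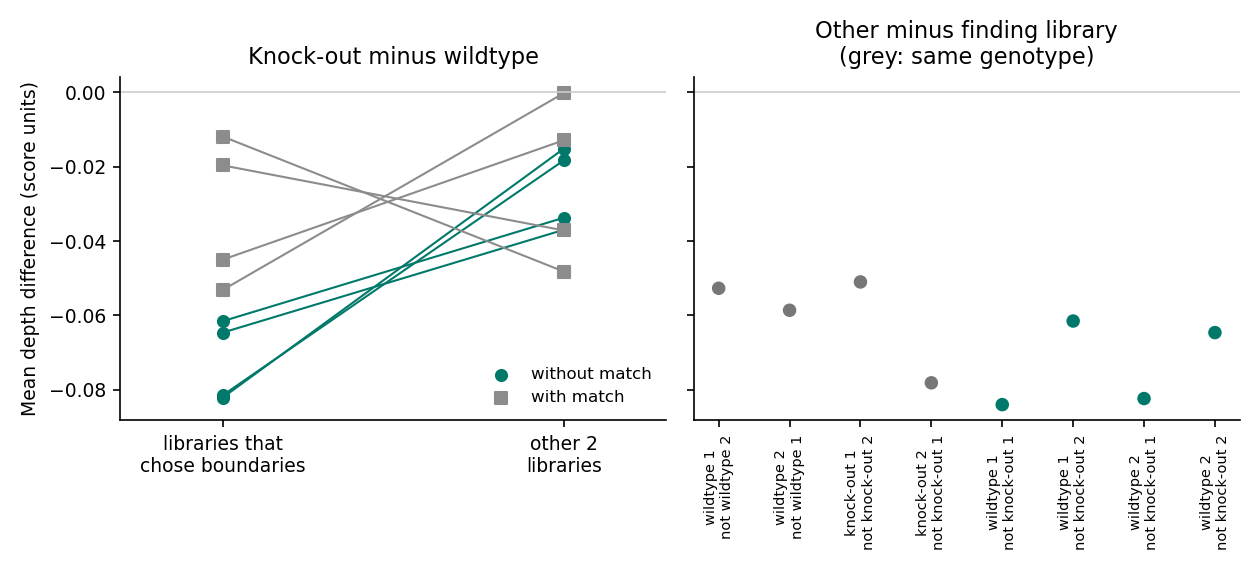
Mean depth difference in score units (vertical axes). Left, knock-out minus wildtype for boundaries without (circles) and with (squares) a match, in the 2 libraries that chose them and in the other 2, with a line for each of the 4 choices; right, the library without a partner minus the library that showed the boundary, for pairs within a genotype (grey) and between genotypes (green). The circles rise from between -0.0821 and -0.0615 to between -0.0369 and -0.0151.

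By the rule of 10 bins on each side, the knock-out minimum was displaced or absent at most members. At fewer it was kept but too shallow. At 144 members (37.9%) a knock-out boundary lay from 60 to 200 kb away. At 134 (35.3%) no knock-out boundary lay within 200 kb and no bin within 40 kb was the lowest among 10 on each side. At 83 (21.8%) the knock-out profile kept its lowest bin within 40 kb, but with a depth below 0.2. The last 19 had an unscored bin in the window of the mean knock-out profile, where the rule allows no boundary, and 9 of them had a boundary within 40 kb in a single knock-out library.

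The 144 members with a displaced partner were the deeper ones. Their depths averaged 0.410 and 0.409 in wildtype and 0.341 and 0.363 in knock-out, and 128 still had a depth of at least 0.2 in the mean knock-out profile. The 134 members with no boundary in the window had 0.288 and 0.285 in wildtype and 0.225 and 0.242 in knock-out, and 80 of them kept 0.2 or more. In all, 212 of the 361 readable members (58.7%) had a knock-out depth of at least 0.2 at the wildtype position. Depth is also read where a bin is no local minimum, so these counts do not show that a dip was kept.

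The 83 members with a shallow knock-out minimum lay close to the threshold from the start. Their depths averaged 0.235 and 0.240 in wildtype and 0.167 and 0.189 in knock-out. The depth of the knock-out minimum itself ran from 0.117 to 0.199 with a median of 0.185, just under the 0.2 required. Of these members 45 had a boundary in at least 1 knock-out library.

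**Figure D4:**
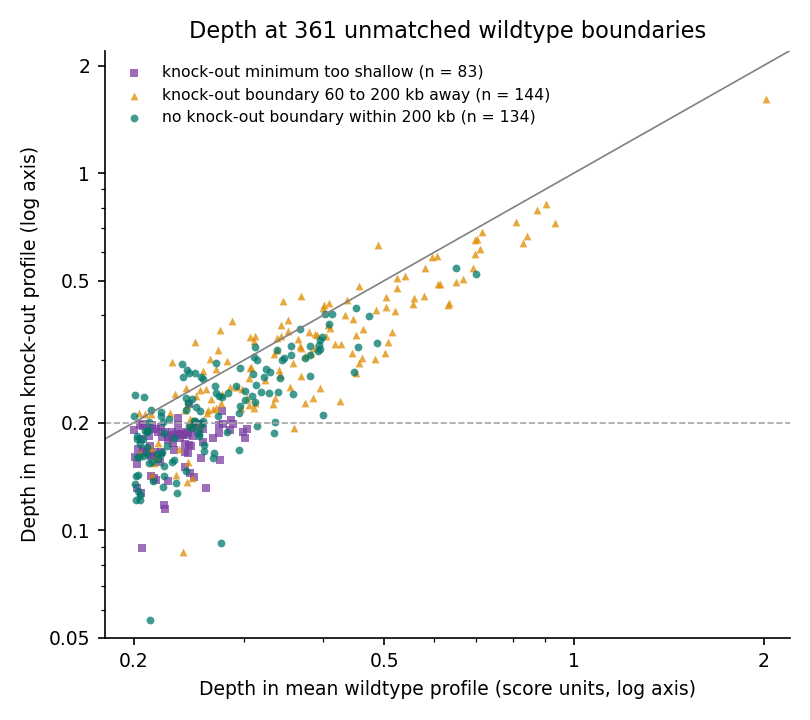
Depth in the mean knock-out profile (vertical log axis) against depth in the mean wildtype profile (horizontal log axis), each point 1 of the 361 readable members, marked by the reason it had no match. The solid line is equality and the dashed line the minimum depth of 0.2; most points lie a little below equality and 212 lie at or above the dashed line.

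The shift of the lowest bin rested on small score differences. In 267 members the lowest knock-out bin of the window lay more than 40 kb from the wildtype boundary. The score at the boundary minus the score at that lowest bin had a median of -0.0428 in wildtype replicate 1, -0.0345 in wildtype replicate 2, 0.0426 in knock-out replicate 1 and 0.0332 in knock-out replicate 2. The sign was below 0 in both wildtype libraries and above 0 in both knock-out libraries at 136 of the 267 (50.9%). These signs were fixed for the genotype means, since 1 bin was lowest in the wildtype mean and the other in the knock-out mean. Nothing is read from the signs or this count. At 91 of the 267 (34.1%) the lowest knock-out bin lay at 160 to 200 kb, the outer edge of the window. A narrower search, for a bin lowest among 3 on each side, found a knock-out minimum within 40 kb of 208 of the 380 members (54.7%). It did so at 1598 of the 1598 matched boundaries and at 83 of the 83 members with a shallow knock-out minimum. Both counts were fixed in advance, since a bin lowest in the wider window is also lowest in the narrower one. The share at members is therefore not compared with that at matched boundaries. In the other classes the narrow search found a minimum at 36 of 144 displaced members and at 80 of 134 with no boundary in the window. With an unscored bin it found one at 9 of 19.

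Slopes across the members were steeper in knock-out by the median, a difference that the rule favours. The difference between the mean scores of the 10 bins on either side had a median size of 0.117 in wildtype and 0.159 in knock-out at members, and 0.122 and 0.131 at matched boundaries. The slope was steeper in knock-out at 265 of 380 members (69.7%) and at 858 of 1598 matched boundaries (53.7%). In 235 of the 267 members with a moved lowest bin (88.0%), that bin lay on the side that was already lower in wildtype. Members were chosen for lacking a knock-out boundary nearby, so nothing is read from these slopes and counts. After subtraction of a running mean over 1020 kb, which removes broad slopes, a knock-out boundary lay within 40 kb of 122 of 380 members (32.1%). The same was seen at 1488 of 1598 matched boundaries (93.1%). Broad slopes and local dips both entered the rule, and their parts in the loss of a match were not tested.

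Distances to the nearest knock-out boundary were densest just outside the match distance and otherwise spread widely. The ranges given here differ in width. The nearest knock-out boundary lay at 60 to 100 kb for 118 members and at 120 to 200 kb for 26. It lay at 220 to 500 kb for 86, at 520 to 1000 kb for 113 and beyond that for 37. Just outside the match distance of 40 kb stood 55 members at 60 kb. Just inside it stood 210 matched boundaries at 40 kb, with 539 at 20 kb and 849 at the same bin.

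At the depth threshold, the 3 members nearest above 0.2 had depths of 0.201 in the mean wildtype profile. On chromosome 7 from 111220001 to 111240000 the depths were 0.214 and 0.230 in wildtype and 0.260 and 0.192 in knock-out. For the member of chromosome 15 from 77800001 to 77820000 they were 0.177 and 0.224 in wildtype and 0.198 and 0.185 in knock-out. For the member of chromosome 4 from 88780001 to 88800000 they were 0.204 and 0.198 in wildtype and 0.159 and 0.181 in knock-out. The genotypes overlapped at the members of chromosomes 7 and 15. Just below the threshold, at 0.199, stood minima on chromosome 6 from 19060001 to 19080000, chromosome 16 from 43840001 to 43860000 and chromosome 4 from 141700001 to 141720000.

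The member with the largest loss of depth lay on chromosome 3 from 90540001 to 90560000 (mm9). Its depth was 1.94 in wildtype replicate 1, 2.09 in wildtype replicate 2, 1.67 in knock-out replicate 1 and 1.57 in knock-out replicate 2. The groups did not overlap, which was a condition for the list of largest losses. The knock-out dip was still deeper than 95% of all wildtype boundaries, which lie under 0.887. The scores at the bin were -2.95 and -3.12 in wildtype and -2.52 and -2.70 in knock-out. Both knock-out libraries had their boundary 100 kb away, while a narrow knock-out minimum stayed at the wildtype bin. Its eigenvector was 0.0466 in wildtype and 0.0497 in knock-out.

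A member of chromosome 1, from 44280001 to 44300000, had depths of 0.916 and 0.951 in wildtype and 0.688 and 0.760 in knock-out. The knock-out boundary there lay 60 kb away, and wildtype replicate 2 also had its lowest bin at 60 kb. This member was accordingly a boundary in 1 of the 2 wildtype libraries. Another member of chromosome 1, from 97760001 to 97780000, had depths of 0.588 and 0.680 in wildtype and 0.473 and 0.388 in knock-out, with a knock-out boundary 100 kb away. It was found within 40 kb in both wildtype libraries and in neither knock-out library. Its mean score was -0.465 ± 0.0212 in wildtype and -0.138 ± 0.118 (SD, n = 2 each) in knock-out.

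The member of chromosome 9 from 73000001 to 73020000 combined a loss of depth with a rise of the score. Depth was 0.403 and 0.398 in wildtype and 0.209 and 0.224 in knock-out. The score was -0.814 and -0.827 in wildtype and -0.281 and -0.463 in knock-out. Both readings separated the genotypes, but for depth this was a condition for the list of largest losses. The nearest boundary of the mean knock-out profile lay 720 kb away. At 200 kb further along, the score was still -0.602 and -0.653 in wildtype and -0.381 and -0.446 in knock-out, so that side stayed low in all 4 libraries. Knock-out replicate 2 alone still had a boundary within 40 kb.

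A further 4 of the 10 largest losses had a displaced partner and no boundary within 40 kb in either knock-out library. The nearest boundary of each single knock-out library lay 60 to 160 kb away. On chromosome 10 from 89440001 to 89460000, depth was 0.632 and 0.636 in wildtype and 0.369 and 0.498 in knock-out. For the member of chromosome 15 from 86320001 to 86340000, it was 0.426 and 0.424 in wildtype and 0.220 and 0.239 in knock-out. Both lay 80 kb from a knock-out boundary. On chromosome 5 from 20260001 to 20280000, depth was 0.473 and 0.430 in wildtype and 0.278 and 0.274 in knock-out. For the member of chromosome 7 from 19460001 to 19480000, it was 0.449 and 0.519 in wildtype and 0.313 and 0.289 in knock-out. Each of the 4 was found in both wildtype libraries.

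The remaining pair of the 10 largest losses was less alike. On chromosome 3 from 72780001 to 72800000, depth was 0.302 and 0.255 in wildtype and 0.0927 and 0.109 in knock-out. Of the wildtype libraries, only replicate 1 had a boundary within 40 kb, and a narrow knock-out minimum stayed at the wildtype bin. The score there was -0.554 and -0.566 in wildtype and -0.476 and -0.517 in knock-out. The nearest boundary of the mean knock-out profile lay 2120 kb away, and the wildtype eigenvector was -0.0446. On chromosome 2 from 53080001 to 53100000, depth was 0.839 and 0.845 in wildtype and 0.633 and 0.700 in knock-out, with a displaced partner 100 kb away and a boundary within 40 kb in 1 knock-out library. Of the 10 members chosen for loss, the chromosome 3 member at 72780001 had the lowest knock-out depth.

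**Figure D5:**
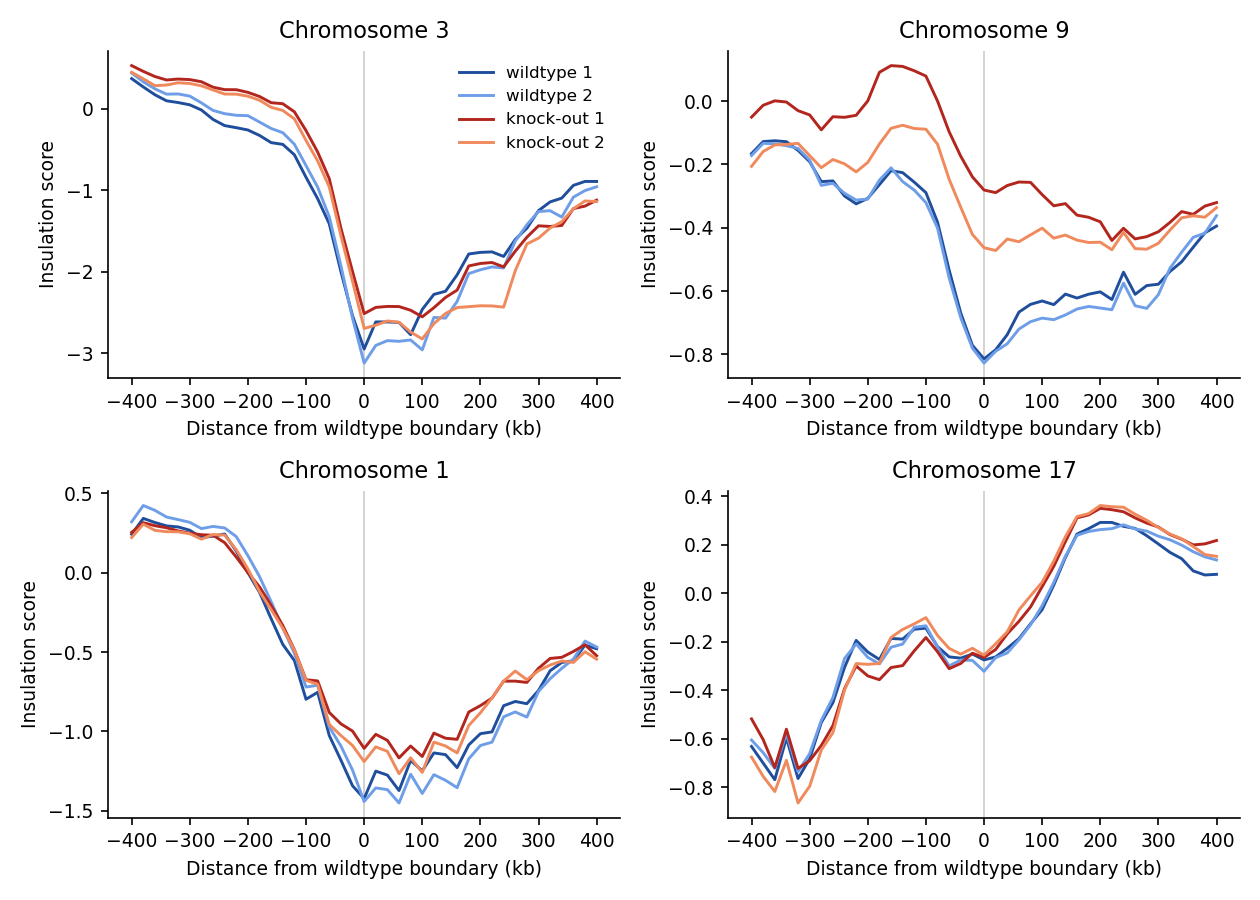
Insulation score (vertical axes) of the 4 libraries against distance in kb from the wildtype boundary (horizontal axes) at 4 members: the largest loss of depth (chromosome 3), a loss of depth with a rise of score (chromosome 9), a displaced minimum (chromosome 1) and the smallest depth difference (chromosome 17). On chromosome 9 both knock-out curves lie above both wildtype curves at the boundary, at -0.281 and -0.463 against -0.814 and -0.827.

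Some members did not differ in depth at all. On chromosome 17 from 24160001 to 24180000, depth was 0.349 and 0.386 in wildtype and 0.349 and 0.386 in knock-out. In the mean knock-out profile, however, a bin 180 kb away was 0.0628 lower. The other 4 with the smallest differences lay on chromosome 2 from 14800001 to 14820000 and from 109540001 to 109560000, chromosome 16 from 64540001 to 64560000 and chromosome X from 132880001 to 132900000. Their differences ran from -0.00156 to 0.00296, and the libraries of both genotypes overlapped at each of them.

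Rises of the score at the bin were largest on chromosome X from 162520001 to 162540000. The score there was -0.901 and -0.784 in wildtype and -0.327 and -0.457 in knock-out. Its depth could not be read in knock-out, where the window held an unscored bin. On chromosome 5 from 121580001 to 121600000 the score went from -0.447 and -0.306 in wildtype to 0.0649 and 0.0426 in knock-out. For the member of chromosome 6 from 114420001 to 114440000 it went from -0.420 and -0.469 to -0.151 and -0.0311. The genotypes did not overlap at any of these bins, which were chosen for their rise.

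The deepest members were often those beside unscored sequence. Of the 10 deepest in wildtype, 5 had an unscored bin in the knock-out window. They lay on chromosome 14 from 20440001 to 20460000, chromosome 3 from 98220001 to 98240000, chromosome 13 from 22180001 to 22200000, chromosome 7 from 50400001 to 50420000 and chromosome X from 162520001 to 162540000. At the first of these the depth was 2.87 and 2.65 in wildtype and 2.36 in knock-out replicate 1. The depth of knock-out replicate 2 could not be read there, although its score of -5.05 was the lowest of the 4 libraries. The other 5 of the deepest had readable depths in all libraries. Of these, chromosome 3 from 116620001 to 116640000 had 0.968 and 0.840 in wildtype and 0.808 and 0.836 in knock-out. For the member of chromosome 15 from 95460001 to 95480000, depth was 0.871 and 0.878 in wildtype and 0.746 and 0.829 in knock-out. Both had a knock-out boundary 60 kb away.

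An unscored bin lay within 400 kb of 36 of 380 members (9.47%) and of 43 of 1598 matched boundaries (2.69%). Without such boundaries 344 members remained, with a depth difference of -0.0555.

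Limma over all 117252 bins scored in 4 libraries called 95 of the 376 scored member bins higher in knock-out at an adjusted p below 0.05, where the share over all bins was 11.2%. It called 11 lower, where the share over all bins was also 11.2%. Bins of matched boundaries were called higher at 206 of 1598 and lower at 45. The rule used the scores of both genotypes, so nothing is read from these counts. The number of called members was 106 with all libraries, 50 when wildtype replicate 1 was left out and 48 when wildtype replicate 2 was. Calls over all bins fell with them, from 26308 to 9213 and 9445. It was 0 after subtraction of the running mean, where 132 member bins had an unadjusted p below 0.05.

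On depth, limma over the 1958 readable wildtype boundaries called 1 of 361 members shallower, where the share called shallower was 0.306%, and 0 deeper, where it was 0.102%. The called member was that of chromosome 3 at 90540001, with a limma difference of -0.399 and an adjusted p of 0.0413. At an unadjusted p below 0.05 there were 82 members (22.7%), against 279 of 1597 matched boundaries (17.5%). No member was called without wildtype replicate 2, knock-out replicate 1 or knock-out replicate 2 (45, 55 and 99 at an unadjusted p below 0.05). When each library was divided by its SD across bins, which was larger in knock-out, 30 members (8.31%) were called, against 183 of all 1958 boundaries (9.35%). The median standard error of a member's depth difference was 0.0365, which is of the same order as the median difference.

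Members lay in both compartments. The compartment eigenvector divides each chromosome into regions of like long-range contacts, and which sign marks active chromatin is not given in the sources used here. It was positive in wildtype at 213 of 376 members with a value (56.6%, 95% Wilson interval 51.6 to 61.6, counting error only) and at 1008 of 1595 matched boundaries (63.2%). Put the other way, 17.4% of 1221 wildtype boundaries in the positive and 21.7% of 750 in the negative compartment had no match. Among boundaries with a depth of 0.2 to 0.25 the shares were 50.0% and 61.9%, and among those of 0.6 or more they were 6.73% and 8.33%. With a minimum depth of 0.3 in both genotypes, 61.6% of unmatched and 62.7% of matched boundaries had a positive value. The eigenvector came as 1 profile per genotype, so these shares have no replicate check. Its sign differed between genotypes at 11 of 376 members (2.93%) and 37 of 1595 matched boundaries (2.32%).

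Scores at the members differed between compartments in level and in change. In the positive compartment, member bins averaged -0.267 and -0.259 in wildtype and -0.155 and -0.182 in knock-out, and 175 of 213 (82.2%) were higher in knock-out. In the negative compartment they averaged -0.490 and -0.496 in wildtype and -0.452 and -0.465 in knock-out, and 98 of 163 (60.1%) were higher. Both knock-out libraries lay above both wildtype libraries in either compartment, in the scores that had chosen the members. At matched boundaries 70.4% of bins in the positive and 52.6% in the negative compartment were higher. Depth did not follow the same split. The depth difference at members was -0.0539 in the positive and -0.0597 in the negative compartment.

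A change of eigenvector sign between adjoining 200 kb bins was seen at 137 of 380 members (36.1%) and at 731 of 1598 matched boundaries (45.7%). That gap went with depth. Among boundaries of 0.2 to 0.25 the shares were 25.3% of members and 23.6% of matched boundaries, and among those of 0.6 or more they were 82.8% and 77.1%. Where the lowest knock-out bin had moved, it lay on the side with the lower wildtype eigenvector at 178 of 267 members (66.7%), and wildtype scores already fell toward that side at 188 of them (70.4%).

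Neighbouring boundaries stood at similar distances from members and from matched boundaries. The nearest other wildtype boundary lay at a median of 680 kb from a member and 700 kb from a matched boundary, with quartiles of 520 and 940 kb and of 560 and 920 kb. Members in the positive compartment had their nearest neighbour at 600 kb and those in the negative at 780 kb, against 680 and 780 kb for matched boundaries. The 2 wildtype boundaries that flanked a member were 2020 kb apart at the median. The knock-out interval that held the same position was 1410 kb. The wildtype length skips the member and so joins the intervals on both its sides, while the knock-out length is a single interval. These lengths are therefore not like for like, and no change of domain size is read from them. For the 134 members with no knock-out boundary in the window these lengths were 1700 and 1600 kb. For the 144 displaced ones they were 2390 and 1080 kb, where a knock-out boundary within 200 kb ended the interval by definition of the class.

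The X chromosome had the highest share of unmatched boundaries, at 28 of 63 (44.4%). On the autosomes the share ran from 12.0% on chromosome 16 to 23.4% on chromosome 4, with 352 of 1915 (18.4%) in all. The X chromosome also matched poorly within a genotype. Of the X boundaries of wildtype replicate 1, 45.3% had no partner in wildtype replicate 2, and 50.7% of those of knock-out replicate 1 had none in knock-out replicate 2, against 18.2% and 18.7% on the autosomes. Unscored bins lay within 400 kb of 11 of the 28 X members and 5 of the 35 matched X boundaries. Depth at the 21 readable X members was 0.323 and 0.363 in wildtype and 0.279 and 0.292 in knock-out. Without the X chromosome the depth difference of the members was -0.0562. The part of lower map coverage or of unscored sequence in the X share was not tested.

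The 10 kb profiles, 1 per genotype and listed for the 19 autosomes, allowed a second look at 352 members. They may rest on the same reads and are no independent evidence. By the same rule in kb, a wildtype boundary lay within 40 kb of 234 members (66.5%) and a knock-out boundary of 84 (23.9%). A wildtype boundary with no knock-out boundary was seen at 157 (44.6%), against 141 of 1563 matched boundaries (9.02%). At the member of chromosome 3 from 90540001 a 10 kb boundary lay 25 kb away in both genotypes, and at that of chromosome 9 from 73000001 the nearest knock-out one lay 235 kb away. Over the whole 10 kb profiles, 374 of 1881 wildtype boundaries (19.9%) had no knock-out partner, close to the share at 20 kb.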

How the data were processed

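Hi-C was made from 2 wildtype and 2 knock-out libraries. Per the file headers, the authors deposited insulation scores of single libraries at 20 kb, and 1 profile per genotype of insulation scores at 10 kb and of the compartment eigenvector at 200 kb. The genome build was mm9, per the submitters' processing notes. Aligner, filters, balancing, insulation window and log base are not given in the sources used here. Groups came from the genotype label. Replicate numbers follow accession order and pair no libraries.

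Boundaries followed the rule stated above, in Python 3.11.15. Depth was then read in each library at the wildtype position. Bins (with a variance trend) and depths were fitted with limma 3.58.1 in R 4.3.3 on genotype alone, and p-values were adjusted by Benjamini-Hochberg over all rows. Since no label says that the 2 libraries of a group are different animals, p-values reflect library spread alone, possibly technical. The limma step was tried on simulated bins with a common spread, and the boundary rule on the mean wildtype profile with some boundaries filled in. Library noise was not added to that profile, so the trial cannot show how many unmatched boundaries noise alone makes.

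The members and the rule for named regions (deepest, largest and smallest depth differences, largest rises of score, and those beside the depth minimum, without chromosome 18) were chosen with earlier results of these data known. The largest losses were taken only among members where both knock-out depths lay below both wildtype depths. The narrow search, slopes and lowest-bin comparisons were chosen after values were seen. Genes were not named and no sequence is shown, since the gene tables at hand use another genome build.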

Additional observations from a re-analysis of the deposited data

How the results depend on the processing

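The number of unmatched boundaries was 590 with a match distance of 20 kb and 662 with a minimum depth of 0.1, and it lay between 262 and 503 under the other settings, with 389 to 503 when a library was left out. The depth difference of the readable members, chosen from all 4 libraries, was -0.0663 to -0.0462 when a library was left out of the reading. In SD units it was -0.160. Boundaries chosen again from 1 library per genotype gave between -0.0369 and -0.0151 in the other libraries (-0.0151, -0.0337, -0.0182 and -0.0369). At the members it was -0.0460 within the libraries whose titles carry the suffix T1 and -0.0666 within those without it. All of these values lay below 0. Except in the libraries that had not chosen the boundaries, the rule favoured that sign, so nothing is read from it. The share in the positive compartment was 61.6% with a minimum depth of 0.3. The median distance to the next wildtype boundary was 620 kb with a minimum depth of 0.1, 840 kb with 0.3, 860 kb with 5 bins and 780 kb with 15 bins on each side. Members called by limma numbered 48 to 127 for bins and 0 to 1 for depth when a library was left out, 0 for bins after subtraction of the running mean, and 30 for depth after scaling to unit SD. At an unadjusted p below 0.05 the settings with 0 depth calls held 45 to 99 members and the running mean 132 bins. With the title suffix T1 as a replicate block 110 member bins and 22 member depths (6.09%) were called, against 26772 of all bins (22.8%) and 102 of all 1958 depths (5.21%). The suffix is not known to mark a shared preparation, and deviations from the group means correlated at -0.0551 across bins. Which members are found also depends on the window, since 81 of the 380 (21.3%) were within 40 kb of an unmatched boundary with 5 bins on each side. Removing chromosome X or boundaries near unscored bins, both chosen after seeing the data, left 352 and 344 members. Sequencing depth was unknown. The median standard error of a member's depth difference was 0.0365. Differences well above it were also uncalled, such as -0.209 on chromosome 1 from 44280001 (limma adjusted p of 0.0597).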
